A study of Glycine max with 2 samples.

Results

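The soybean growth genes followed here were 4 genes named for their hormone response or cell wall product. They are AUX22 (gene identifier 547784), an auxin-induced gene, ADR11 (547928), an auxin-repressed gene, CIM1 (548090), a cytokinin-induced gene, and SBPRP (547594), which encodes a proline-rich cell wall protein. The members were all soybean probe sets assigned to 1 of these symbols alone in the platform's annotation. That gave 5 probe sets for 4 genes, out of 8677 probe sets for 6031 genes with a single assignment and 37593 soybean probe sets in all. The genes had been chosen with their ratios known, because their signals differed between the arrays. Their values are therefore a description, with no test.

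The samples were seedlings of soybean (Glycine max, cultivar Williams 82), 14 days old, treated with 150 mM NaCl or, as the mock treatment, with water alone. Per the labels, RNA from treatments of 1, 3, 6, 12 and 24 h was mixed into 1 pool of salt-treated and 1 pool of mock-treated seedlings, and the design text adds a start time, so it is unclear whether the pools hold untreated plants. The labels do not name the organs taken. Each pool went to 1 Affymetrix Soybean Genome Array, so there are no replicates, no p-values, and no measure of the spread between plants. On this array a probe set is a group of short probes meant for 1 transcript, though some sets may match several transcripts or other sequences.

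Auxin moves growth genes through a relay of receptors and repressors. F-box receptors of the TIR1/AFB family mark Aux/IAA repressor proteins for destruction when auxin is bound, and this frees auxin response factors to act on their target genes. Many Aux/IAA genes are themselves induced by auxin, while other transcripts, such as those of the soybean ADR genes, decline when auxin is given. Cytokinins act through a separate phosphorelay, and isopentenyltransferases make them while cytokinin oxidases break them down. Growth itself needs the cell wall to yield. Expansins loosen the wall, xyloglucan endotransglucosylases cut and rejoin its tethers, and proline-rich proteins can be built into it.

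The signals of AUX22, ADR11 and SBPRP were lower on the salinity array, and that of CIM1 was higher. AUX22 was 3.68-fold lower, ADR11 4.29-fold lower and SBPRP 4.32-fold lower, whereas CIM1 was 12.1-fold higher. So the auxin-induced and the auxin-repressed gene lay on the same side of the mock pool, and the cytokinin-induced gene on the other. Because RNA of many cells was pooled, fewer cells of a type and less RNA per cell cannot be told apart in any of these values.

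AUX22 encodes an Aux/IAA repressor and was first described as an auxin-induced message of soybean. Its 1 probe set had a log2 signal of 12.70 on the mock array and 10.82 on the salinity array. On the linear scale these are signals of 6672 and 1814. The log2 ratio of salinity to mock was -1.88. Both signals were far above the background bound, a log2 signal of 4.94 (mock) and 4.88 (salinity), so the lower value is a measured level and not a limit. The bound is the 95th percentile of the array's probe sets for 2 other organisms, the soybean cyst nematode and Phytophthora sojae.

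ADR11 belongs to the ADR messages, which were found as soybean transcripts that decline after auxin. It was measured by 2 probe sets. The brighter one had a log2 signal of 13.80 on the mock array and 11.70 on the salinity array, a log2 ratio of -2.10. The dimmer one had log2 signals of 12.80 and 10.67, a log2 ratio of -2.13. The ratios of the 2 sets differed by 0.03. For scale, the SD between probe sets of a gene was 0.295, over 1618 genes with at least 2 sets above the bound on both arrays. It is the SD of the difference between the 2 brightest sets, divided by the square root of 2. It is thus a spread per set, while 0.03 is a difference between 2 sets. The suffix of the dimmer set marks probes that may also match other sequences, and that of the brighter set marks probes shared by several transcripts of a gene, so the ADR11 sets may not be independent of each other. A further set of the same sequence cluster has no gene assigned to it alone and gave a log2 ratio of -2.07. It is marked for possible matches to other sequences and shares its name, up to the suffix, with the brighter ADR11 set. It may therefore not be an independent measurement either.

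SBPRP encodes a proline-rich protein whose message is known in soybean to respond to salicylic acid, to the daily rhythm and to several stresses. Its probe set had a log2 signal of 13.96 on the mock array and 11.85 on the salinity array. The linear signals were 15977 and 3699, and the log2 ratio was -2.11. Another set of the same sequence cluster has no gene assigned to it alone and went from 11.52 to 11.11, a log2 ratio of -0.41. The value of SBPRP therefore rests on 1 probe set. The unassigned set lay on the same side of 0 but differed far less.

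CIM1 encodes a beta-expansin, and its message was found as one that cytokinin raises in cultured soybean cells. Its 1 probe set had a log2 signal of 5.65 on the mock array and 9.25 on the salinity array. The linear signals were 50.3 and 610.4, and the log2 ratio was 3.60. On the mock array CIM1 lay only 0.71 log2 units above the bound, so its fold is the least certain of the 4. With the bound at the 99th percentile of the other organisms' probe sets, the mock signal fell under it and the log2 ratio became a lower limit of 3.55. With 16 added to each signal in place of a bound, the log2 ratio was 3.24, or 9.45-fold.

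**Figure D1:**
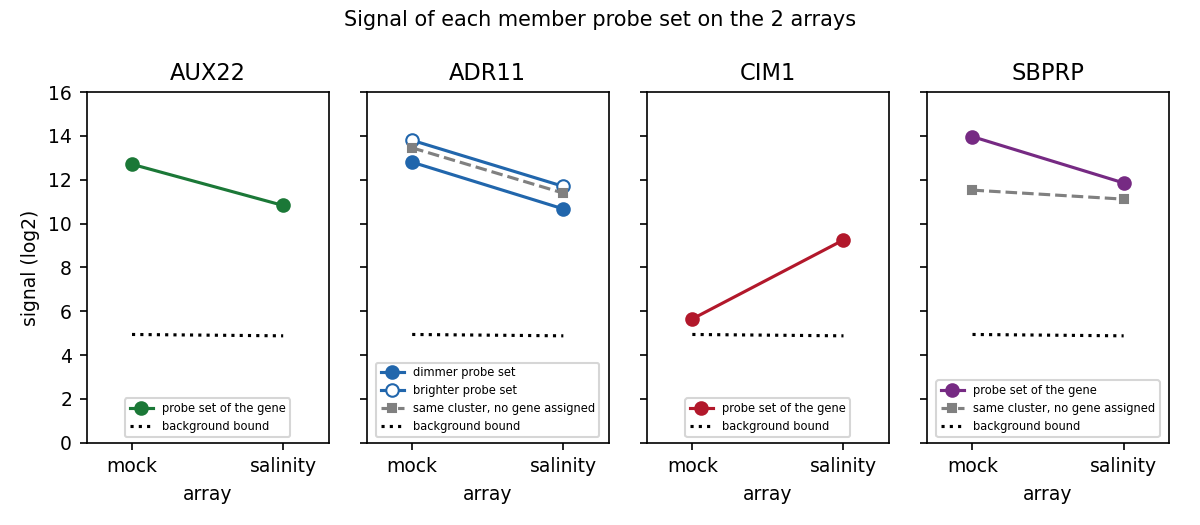
Log2 signal on the mock and the salinity array, 1 panel per gene, with 1 point per probe set and array, and dotted lines for the background bound. AUX22, ADR11 and SBPRP slope down from the mock to the salinity array, at log2 ratios of -1.88, -2.10 and -2.11, CIM1 slopes up by 3.60 from a mock signal near the bound, and the grey squares are sets of the same sequence cluster with no single gene assigned.

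Differences of this kind were uncommon on the arrays as a whole. Of 33784 soybean probe sets above the bound on at least 1 array, 5.36% were at least 2-fold lower on the salinity array and 4.33% at least 2-fold higher, and 4 of the 5 member probe sets were among the former and 1 among the latter. Since the members were chosen by this same contrast, their number says nothing beyond the choice. Ordered by log2 ratio, CIM1 was 46th from the top of these probe sets. From the bottom, the dimmer ADR11 set was 162nd, SBPRP 170th, the brighter ADR11 set 174th and AUX22 272nd. Counted as genes by their brightest probe set, of 5895 measured CIM1 was 17th from the top, and SBPRP, ADR11 and AUX22 were 28th, 30th and 44th from the bottom. Of these genes, 5.02% had a signal at least 2-fold higher in the salinity pool, and for 5.68% it was at least 2-fold lower.

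The members differed in how bright they were, which bears on how much array scatter surrounds them. AUX22, ADR11 and SBPRP were among the brightest when the 32113 sets that exceeded both bounds were split by mean signal into 3 groups of like size. In that group the SD of the log2 ratio over all probe sets was 0.573, and 4.09% were at least 2-fold lower. CIM1 lay in the dimmest group, where that SD was 0.682 and 4.96% were at least 2-fold higher. These SDs mix differences between the pools with measurement scatter.

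**Figure D2:**
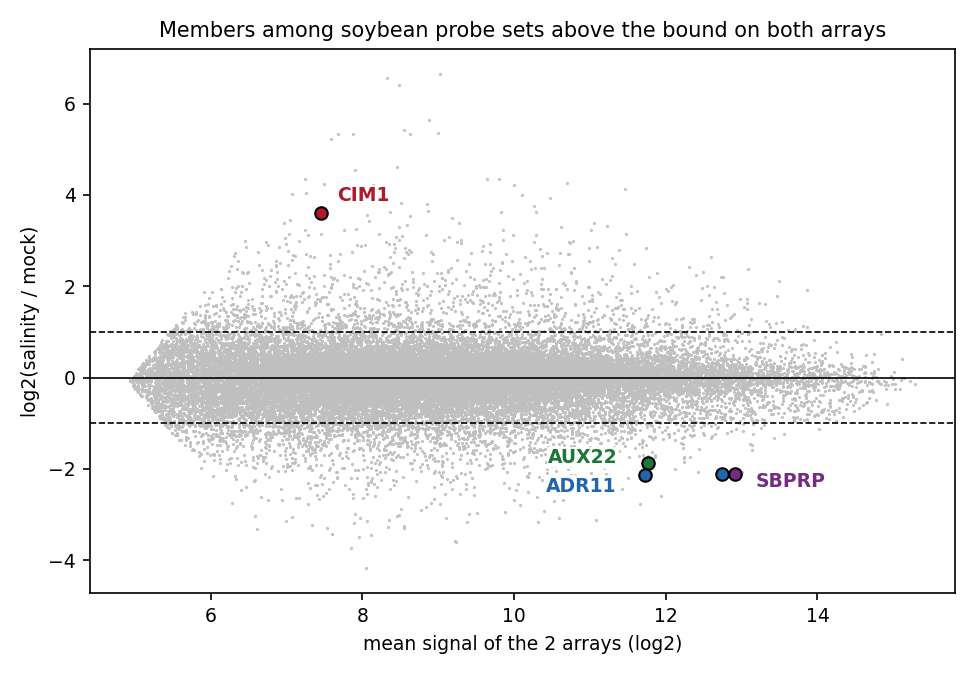
Log2 ratio of salinity to mock against the mean log2 signal for the 32113 soybean sets that exceeded both bounds (grey), with the 5 member probe sets in colour and dashed lines at a 2-fold difference. The AUX22, ADR11 and SBPRP sets sit at the bright end and below the lower dashed line, and CIM1 sits among dim sets and far above the upper one.

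The rest of the auxin pathway was represented by 6 further genes found by symbol, and none of them differed 2-fold. Few of the 5895 genes did, 5.02% upwards and 5.68% downwards, so finding none among 6 says little. AUX22 and ADR11 had been chosen for their ratios. AUX28, the other Aux/IAA gene named on the array, went from a log2 signal of 8.04 on the mock array to 7.50 on the salinity array. Its log2 ratio of -0.54 had the sign of AUX22 but was 1.34 log2 units smaller in size. ADR12, the other ADR gene, went from 8.27 to 8.74 and had a log2 ratio of 0.46, opposite in sign to ADR11. The only ADR12 probe set here carries a mark for probes that may match other sequences.

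The auxin receptors and carriers lay close to 0. AFB3B, an auxin receptor gene, had log2 ratios of 0.05 by its brighter set and -0.08 by its other set. The receptor gene TIR1C lay at -0.23 and LAX11, of the auxin influx carriers, at -0.24. PIN2A, matched by its symbol alone, lay at 0.15. Over the 8 auxin genes the median log2 ratio was -0.23, with 5 below 0, and over the 6 without AUX22 and ADR11 it was -0.09, with 3 below 0. Over all 5895 genes it was -0.0033. The symbol patterns for the GH3 and SAUR families, auxin response factors and auxin synthesis found no gene, so these groups have no values here.

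Few cytokinin genes carried a symbol. IPT, an isopentenyltransferase gene, went from a log2 signal of 8.23 on the mock array to 6.69 on the salinity array, which is 2.91-fold lower. CKX3, a cytokinin oxidase gene, went from 6.03 to 6.42, a log2 ratio of 0.39. Of the 3 cytokinin genes, CIM1, which was chosen for its ratio, was thus the only one past 2-fold upwards. The other 2 genes had 1 probe set each, and IPT alone was past 2-fold downwards. Among all 5895 genes the shares were 5.02% (upwards) and 5.68% (downwards).

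Among the 5 expansin genes, CIM1 had the highest log2 ratio and EXP1 the next. EXP1 went from a log2 signal of 7.89 on the mock array to 8.99 on the salinity array, 2.16-fold higher, and its log2 ratio of 1.11 was 2.49 below that of CIM1. EXP2 and EXP4 were nearly level, at log2 ratios of -0.07 and -0.08, and the other sets of EXP2 gave values down to -0.33. LOC100499976, listed under the synonym expansin, lay at -0.81. Besides CIM1, which was chosen for its ratio, 1 of 4 expansins was past 2-fold upwards and none downwards, where 5.02% and 5.68% of all genes were.

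Of the 4 proline-rich wall protein genes, SBPRP, which was chosen for its ratio, was the only one at least 2-fold lower. None was at least 2-fold higher. Over all 5895 genes, 5.68% were at least 2-fold lower and 5.02% at least 2-fold higher. PRP2 was brighter on the salinity array, at log2 signals of 14.37 on the mock and 15.32 on the salinity array by its brighter set. Its log2 ratios were 0.95 and 0.50 by its 2 sets, both of which are marked for possible matches to other sequences. PRP3 lay at 0.19 and 0.34 by its 2 sets, and PRP1 at -0.19. The log2 ratio of SBPRP was 3.06 lower than that of PRP2. The members of this group are proline-rich wall proteins by name, and their ratios spanned -2.11 to 0.95.

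Of the 5 genes for enzymes and inhibitors of wall polysaccharides, PGIP alone differed at least 2-fold. XTH1 and XET1, of the xyloglucan endotransglucosylase family, had log2 ratios of -0.93 and -0.56. PGIP, for an inhibitor of fungal pectin-cutting enzymes, was 2.52-fold higher on the salinity array, with log2 ratios of 1.33 and 1.48 by its 2 sets, while PGIP4 lay at -0.44. CEL12 was measured by 6 sets that ranged from -0.35 to 0.11, on both sides of 0. Over the 14 wall genes the median log2 ratio was -0.14, with 9 below 0, 3 past 2-fold upwards and 1 past it downwards. Without the chosen CIM1 and SBPRP the median over 12 genes was -0.14 as well, with 8 below 0, 2 past 2-fold upwards (EXP1 and PGIP) and none downwards. Over all 5895 genes, 2960 lay below 0, 5.02% were past 2-fold upwards and 5.68% downwards.

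**Figure D3:**
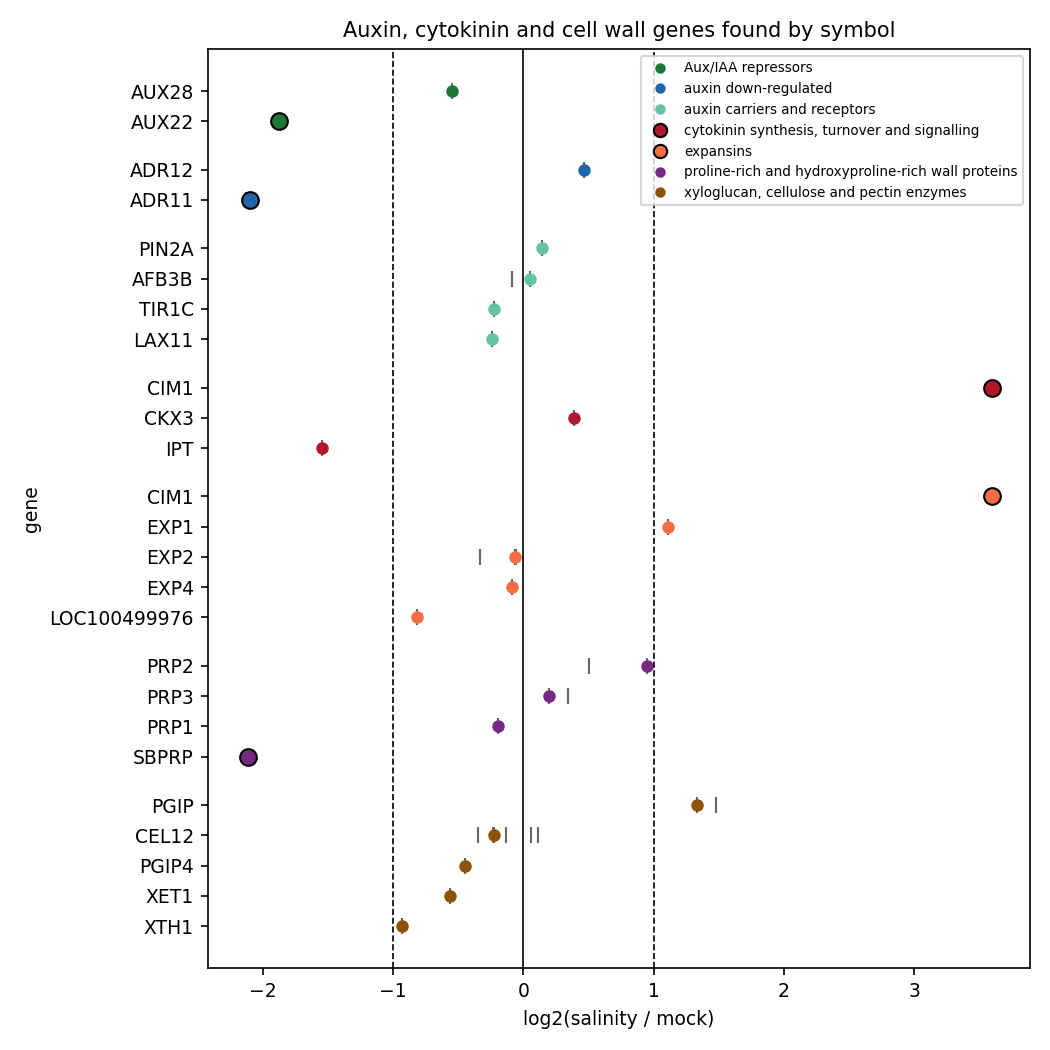
Log2 ratio of salinity to mock for auxin, cytokinin and cell wall genes, grouped by role, with a large outlined point for each of the 4 member genes, a small point for each other gene by its brightest probe set, ticks for its single probe sets, and dashed lines at a 2-fold difference. CIM1 appears under cytokinin and under expansins, and the other auxin genes lie between -0.54 and 0.46.

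With 2 arrays a pattern across samples is only a pair of signals, so likeness was taken as the distance between log2 signals on both arrays. It was searched over 915 genes with a true symbol, not just a locus number, whose signals exceeded both bounds. Brightness also depends on the probes, so the distance describes these probe sets and says nothing of shared control. ADR11 and SBPRP were each other's nearest gene, at a distance of 0.23, and their log2 ratios differed by 0.01. After SBPRP, the genes nearest to ADR11 were MMP2 (distance 0.58, log2 ratio -1.56) and FBP (0.62, -1.27). INR2 (0.72, -1.23) and FBP (0.73) followed ADR11 for SBPRP. Nearest to AUX22 were SCA1 (0.41, -1.31), DAO (0.53, -1.16) and FAD8.2 (0.57, -1.08), all with smaller differences than AUX22 itself. Nearest to CIM1 were DREB1-like (0.41, 3.13), PM16 (0.51, 3.23) and BFT (0.59, 3.44), which were likewise dim on the mock array and much brighter on the salinity array.

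Other features of the arrays were compared beside these values. The mean signals, trimmed by 2% at each end, were nearly equal, 498.8 (salinity) and 498.5 (mock). Whether the processing had set them level is not given, so their likeness says nothing of the samples. The 6 reference genes for ubiquitin, tubulin and elongation factor had log2 ratios between -0.25 and 0.41 by their brightest sets. Their other sets ranged from -1.05 (EF1BGAMMA4) to 0.69 (LOC100791065). The other SUBI-1 sets lay at 0.46 and 0.49, against -0.25 for its brightest. Leaf markers were bright on both arrays, with CAB3, a chlorophyll-binding protein gene, at log2 signals of 14.90 (salinity) and 15.14 (mock). The log2 ratios of the 3 leaf genes were -0.24 for CAB3, 0.24 for the vegetative storage protein gene VSPA and 0.83 for LOC547820, listed under the synonym VSPB, with a median of 0.24. The sets of LOC547820 ranged from -0.49 to 0.83, the 7 measured sets of VSPA from -0.28 to 1.15 and those of CAB3 from -0.42 to 0.26. Of 7 seed protein genes, 5 were below the bound on both arrays. Of the nodule markers 2 were named, N-36A with a log2 ratio of 1.23 and ENOD55-2 with -1.76. Of 39 ribosomal RNA sets that exceeded both bounds, 33 were brighter on the salinity array, with a median log2 ratio of 0.79. The part of ribosomal RNA content and of organ makeup in the ratios of the 4 genes was not tested.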

How the data were processed

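Total RNA was extracted with Trizol, and biotin-labelled cRNA was put on Affymetrix arrays of the soybean genome, per the labels' protocols. The deposited values are log2 signals that the authors made with MAS5 (version not given), per the submitters' processing notes. The log2 scale was read from the values. Any further step is not given in the sources used here. The table held 61035 probe sets. Signals below the bound (95th percentile of 23350 probe sets of 2 other organisms) were raised to it, and the log2 ratio of salinity to mock was taken with no further scaling. Each group is 1 array, so nothing was tested and at least 2-fold served as the rule of size. The number of arrays limits the precision.

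Genes were named from the annotation of the platform and, by identifier, from RefSeq's table for Glycine_max_v4.0, which served for names only. It held all 4 genes. No coordinates are given. A gene was represented by its brightest probe set, by mean signal. Related genes came from 15 lists of symbol patterns, 4 of which found no gene. The members, lists and rules were chosen with earlier results of these data known. Named were the 4 genes, list genes at least 2-fold apart (in lists with none, the gene farthest from 0) and the 3 nearest genes to each of the 4. Other list genes were named after their values were seen. The calculation, with Python 3.11.15, pandas 2.3.3 and statsmodels 0.14.6, was tested on simulated data. Alternatives were 3 scalings (median centring, quantile, loess), 2 other bounds, an added constant of 16, unmarked probe sets and the mean over probe sets.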

Additional observations from a re-analysis of the deposited data

How the results depend on the processing

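AUX22, ADR11, CIM1 and SBPRP kept their direction and stayed past 2-fold under every alternative that gave a value. For AUX22 and SBPRP several alternatives could not change the value. Each has 1 unmarked probe set far above the bound, so the other bounds, the unmarked sets and the mean over sets return the same number. For CIM1 the last 2 of these could not change it either. The log2 ratio ranged from -1.88 to -1.87 for AUX22, from -2.12 to -2.07 for ADR11, from -2.11 to -2.07 for SBPRP and from 3.24 to 3.65 for CIM1. CIM1 alone moved by more than the SD between probe sets of a gene, to 3.24 with 16 added to each signal, a constant that is large beside its linear mock signal of 50.3. ADR11 has no value without marked probe sets, since both its sets are marked. The probe sets at least 2-fold higher numbered 1195 to 1586 and those lower 1590 to 1924. The medians of the auxin and cell wall lists stayed below 0. Without the 4 genes, an alternative added after seeing the data, the cytokinin median was -0.58 over 2 genes against 0.39 over 3. No paired analysis was possible because each group has 1 array. Signal over background limits CIM1 on the mock array.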
